A study of Mus musculus with 6 samples.

Results

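Interferon-stimulated genes and interferon regulatory factors (IRFs) were examined in the mouse uterus with and without SOX17 in its epithelium. The list held 46 genes, taken by name for their function, with earlier results of these data known. It covers the interferon receptor subunits, IRF and STAT transcription factors, cytosolic nucleic acid sensors and the antiviral effectors that interferon induces. Array probes were named through their RefSeq accessions. Probes of 44 of the 46 genes could be named that way and all 44 were tested, out of 14856 genes tested in the whole array; Mx1 and Mx2, which encode antiviral GTPases, were not analysed here. Of the 44, 43 were well above background on all 6 arrays and the remaining gene, Oas3, on 5.

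RNA came from whole uteri collected at gestational day (GD) 3.5 of natural pregnancy, free of embryos, from females mated when 8 to 10 weeks old. The control group was Sox17f/f, with loxP sites in both Sox17 alleles (n = 3 uteri). That name is from the sample titles and the paper, while the genotype field of the labels calls the controls WT. The Sox17ed/ed group was Ltf iCre/+ Sox17f/f (n = 3 uteri). By the titles, every animal thus carried the floxed alleles. The mutants in addition were heterozygous for iCre at the Ltf locus, which the controls lacked. Ltf iCre is active in the luminal and glandular epithelium of the adult uterus, and Sox17 in endothelium and other cells is left intact. Each uterus was hybridised alone to a 1-colour Agilent mouse array, and nothing in the labels ties a mutant to a particular control. All levels below are quantile-normalized log2 signals of single probes, and all differences are Sox17ed/ed minus Sox17f/f on the log2 scale, so that a difference of 1 is a doubling of signal. Such signals compare arrays for 1 probe and do not rank genes by abundance.

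Interferons act through paired receptors. Type I interferons bind IFNAR1 and IFNAR2, interferon gamma binds IFNGR1 and IFNGR2, and both pairs pass the signal through JAK kinases to STAT proteins. After a type I signal, STAT2 and IRF9 act in a complex that binds the interferon-stimulated response element (ISRE) near the start of many interferon-stimulated genes, whereas interferon gamma acts mainly through the gamma-activated site (GAS). Other IRFs bind related elements, with or without an interferon signal. In the uterus these genes are best known from ruminants, in which the conceptus secretes interferon tau, and the uterine epithelium of mice makes an interferon of its own, interferon epsilon.

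Sox17 itself checked the labels. Its signal was 12.21, 12.07 and 12.22 on the Sox17f/f arrays and 9.75, 9.59 and 9.81 on the Sox17ed/ed arrays, a difference of -2.45 (SE 0.09, limma adjusted p = 2.69e-05). Between 60.7% and 65.7% of non-control spots were well above background on the Sox17f/f arrays and between 56.8% and 59.4% on the Sox17ed/ed arrays, and no spot was saturated. All 6 arrays lay on 1 slide and were scanned together, but each genotype filled its own line of the slide, so line and genotype cannot be told apart. With 3 arrays a genotype, an exact two-sided permutation test of 1 gene cannot go below p = 0.1, so calls rest on limma's moderated test with Benjamini-Hochberg adjustment over all 14856 genes.

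The interferon genes did not move as a block. At an adjusted p under 0.05, 11 of the 44 members were called (25%), against 18.8% of all genes tested: 3 were higher (6.82% of members against 8.81% of all genes) and 8 were lower (18.2% against 10.0%). Oas3, Rsad2 and Cmpk2 were the members called higher, and Ddx58, Zbp1, Xaf1, Ifi44, Ifitm3, Stat2, Dhx58 and Ifngr2 those called lower. The threshold in the study's methods, an unadjusted p under 0.01 with a fold change of at least 1.4, took 7 members (15.9%) against 12.5% of all genes; 3 were higher against a background of 6.04% and 4 lower against 6.46%. In 22 of the 44 members (50%) the arrays of the genotypes did not overlap, 7 higher and 15 lower in Sox17ed/ed, against 40.6% of all genes. The median difference over the members was -0.12, beside -0.0016 over all genes. The members' median signal itself varied between arrays of a genotype with an SD of 0.11. The direction was negative in 30 members and positive in 14, and over all 14856 genes it was negative in 7466. As these were whole uteri, fewer cells of a type and less RNA per cell cannot be told apart in any of these differences.

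**Figure D1:**
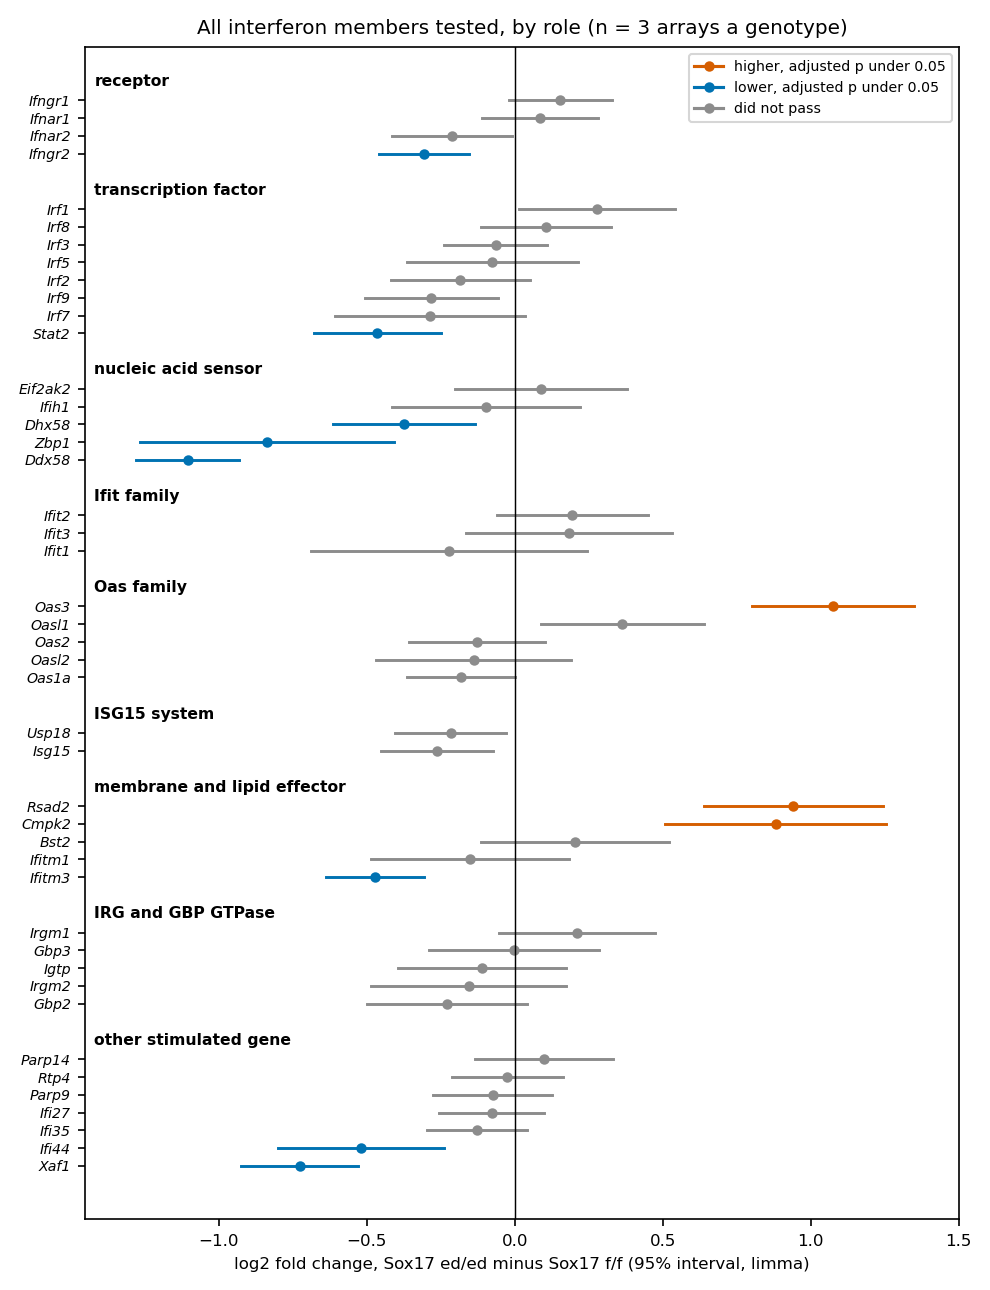
Log2 fold change of each of the 44 members tested (horizontal axis, Sox17ed/ed minus Sox17f/f; points, limma estimates; lines, 95% intervals; n = 3 arrays a genotype), grouped by role. The 3 members called higher lie between 0.88 and 1.08, the 8 called lower between -1.10 and -0.31, and the 33 others between -0.29 and 0.36.

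The members varied together among uteri of the same genotype. Within Sox17f/f, replicate 3 gave the highest of the 3 signals for 30 of 44 members (68.2%) but for 37.6% of all genes. Within Sox17ed/ed, replicate 3 gave the lowest of the 3 signals for 31 of 44 members (70.5%) but for 32.7% of all genes. Without Sox17f/f replicate 3 the members' median was -0.04, without Sox17ed/ed replicate 3 it was -0.05, and without both it was -0.01. These arrays were singled out after their values were seen, as the highest controls and the lowest mutants, so leaving them out had to move the median towards 0, and these medians are a description only. With both left out, 6 members were called (13.6%, against 12.5% of all genes in that fit), all of them among the 11: Oas3, Rsad2 and Cmpk2 higher, and Ddx58, Zbp1 and Xaf1 lower.

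**Figure D2:**
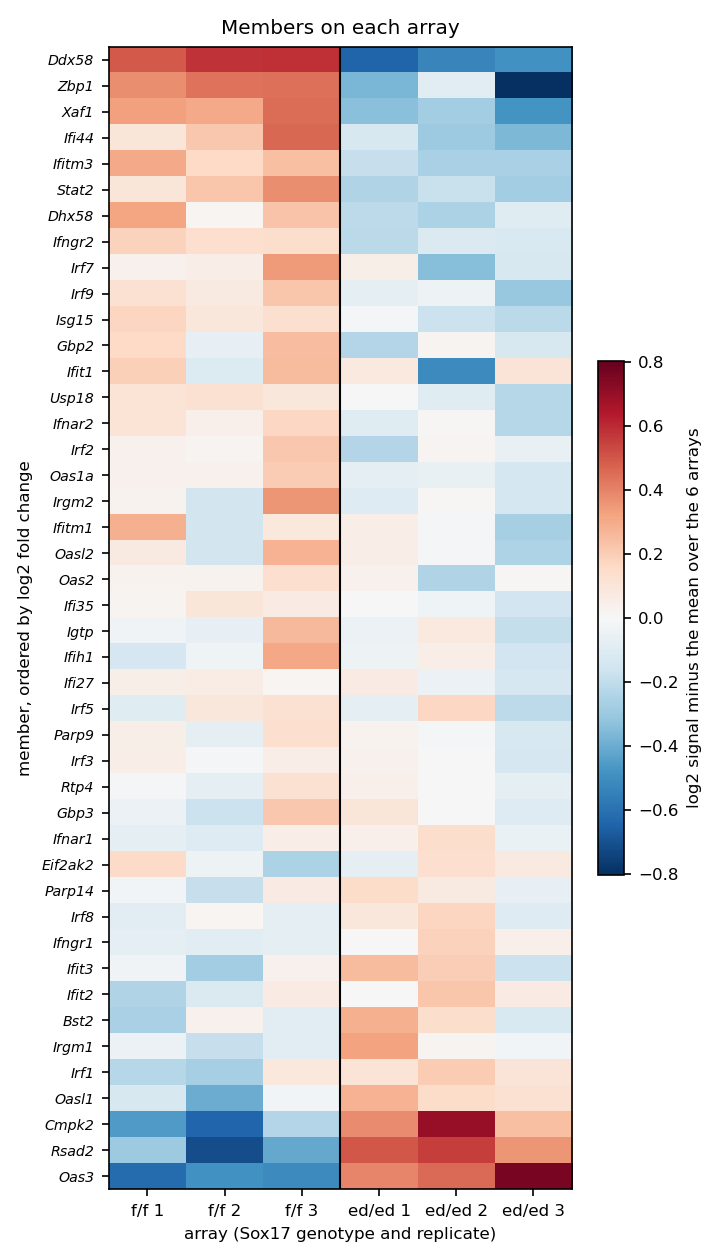
Normalized log2 signal of each of the 44 members on each of the 6 arrays (columns), minus the member's mean over the 6 arrays, with members ordered from the most negative to the most positive log2 fold change; red is above and blue below that mean. Replicate 3 of Sox17f/f was the highest of its genotype in 30 members and replicate 3 of Sox17ed/ed the lowest in 31, and the arrays of the genotypes separate in 22.

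The promoters of 5 members are shown because the same letters occur, before or just past the start, in genes that differed in opposite directions and in a gene that was not called. They are RefSeq windows of 300 bases on build GRCm38.p6, from 250 bases before to 50 bases after the gene's start, read 5′ to 3′ along the gene. Capitals mark an ISRE core, here GAAA, 2 bases of any kind and GAAA, on either strand; on the opposite strand it reads as TTTC, 2 bases and TTTC.
Oas3, chr5:120777610-120777909, minus strand, called higher by 1.08: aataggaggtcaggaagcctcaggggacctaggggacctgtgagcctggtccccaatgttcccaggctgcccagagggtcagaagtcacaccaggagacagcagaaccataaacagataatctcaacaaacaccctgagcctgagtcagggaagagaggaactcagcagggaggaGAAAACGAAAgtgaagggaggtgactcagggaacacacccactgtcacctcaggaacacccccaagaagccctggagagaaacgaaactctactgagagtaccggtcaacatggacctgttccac
Rsad2, chr12:26456403-26456702, minus strand, called higher by 0.94: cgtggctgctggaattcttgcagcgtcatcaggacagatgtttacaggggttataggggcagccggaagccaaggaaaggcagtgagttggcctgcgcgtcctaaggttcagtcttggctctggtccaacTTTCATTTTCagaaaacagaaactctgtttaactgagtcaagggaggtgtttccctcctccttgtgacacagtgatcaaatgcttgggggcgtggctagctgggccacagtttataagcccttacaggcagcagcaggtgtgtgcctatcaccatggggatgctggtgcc
Ddx58, chr4:40239776-40240075, minus strand, called lower, -1.10: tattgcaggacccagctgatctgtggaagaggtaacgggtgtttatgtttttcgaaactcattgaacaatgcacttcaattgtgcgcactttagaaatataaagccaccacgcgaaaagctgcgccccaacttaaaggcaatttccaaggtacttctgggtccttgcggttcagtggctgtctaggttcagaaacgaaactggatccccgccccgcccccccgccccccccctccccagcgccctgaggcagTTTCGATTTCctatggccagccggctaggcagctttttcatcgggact
Ifitm3, chr7:141010695-141010994, minus strand, called lower, -0.47: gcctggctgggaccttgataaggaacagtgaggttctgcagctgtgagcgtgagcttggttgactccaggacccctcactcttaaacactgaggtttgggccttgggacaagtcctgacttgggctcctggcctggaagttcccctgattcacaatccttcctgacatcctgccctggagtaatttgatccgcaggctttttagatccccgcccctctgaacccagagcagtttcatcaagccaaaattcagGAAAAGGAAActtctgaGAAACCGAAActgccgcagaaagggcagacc
Isg15, chr4:156200769-156201068, minus strand, not called, -0.26: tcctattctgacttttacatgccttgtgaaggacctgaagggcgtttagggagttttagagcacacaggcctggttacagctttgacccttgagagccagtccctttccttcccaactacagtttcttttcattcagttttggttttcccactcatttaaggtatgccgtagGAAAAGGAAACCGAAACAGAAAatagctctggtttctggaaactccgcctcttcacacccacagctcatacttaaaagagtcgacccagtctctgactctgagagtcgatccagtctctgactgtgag
The element lies upstream of the start in Oas3 and Rsad2 and just past it in Ddx58. Ifitm3 has 2 copies past its start, and Isg15 has 3 overlapping copies upstream.

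RefSeq windows were found for 36 of the 46 listed genes, and 5 of the 36 had more than 1 window. The ISRE core was present in 18 of the 36 (50%), against 3.99% of 27025 genes with a window in the same table. The GAS sequence TTCNNNGAA was present in 13 of the 36 (36.1%), against 9.55% of all genes; 7 members held both, and in 2 of them a copy of each shared bases. Of the 18 members with the ISRE core, 5 were called, 2 higher and 3 lower, with a median difference of -0.13, and of the 18 without it 4 were called, 1 higher and 3 lower, with a median of -0.10. Of the 13 members with the GAS sequence 1 was called, Ifitm3, which was lower, with a median of -0.11, and of the 23 without it 8 were called, 3 higher and 5 lower, with a median of -0.14. These counts are too small to read against the 18.8% of all genes that were called. Cmpk2, Xaf1, Ifi44 and Ifngr2 were the called members whose window lacked the letters, and Zbp1 and Dhx58 had no window. Members with the ISRE core were thus called in both directions. A match in letters is not a binding site.

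Of the 4 receptor subunits, Ifngr2, the signalling chain of the interferon gamma receptor, was called lower. Its signal was 11.42, 11.37 and 11.37 in Sox17f/f and 11.01, 11.12 and 11.11 in Sox17ed/ed, a difference of -0.31 (SE 0.06, limma adjusted p = 0.0214). The groups did not overlap, but the change was 1.24-fold and the call was lost in 6 of the 15 alternative settings. Ifngr1, the ligand-binding chain, was 0.15 (95% interval -0.02 to 0.33). Ifnar1 and Ifnar2, the type I receptor chains, were 0.08 (95% interval -0.11 to 0.28) and -0.21 (95% interval -0.41 to -0.01). None of these 3 passed the adjusted threshold, and each interval stays under a 1.4-fold change. In the RefSeq gene order Ifnar2, Il10rb, Ifnar1 and Ifngr2 are neighbours on chromosome 16, and Il10rb, a shared chain of the interferon lambda and interleukin-10 receptors, was 0.22 (adjusted p = 0.146).

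Among 8 transcription factors, Stat2, the subunit that gives the type I complex its activation domain, was called lower. Its signal was 11.28, 11.41 and 11.56 in Sox17f/f and 10.95, 11.01 and 10.91 in Sox17ed/ed, with no overlap. The difference was -0.46 (SE 0.09, limma adjusted p = 0.0162), and the call was lost in 5 of 15 settings, among them without Sox17f/f replicate 2, Sox17ed/ed replicate 1 or Sox17ed/ed replicate 3. Irf9, the DNA-binding subunit of the same complex, was 11.89, 11.84 and 11.99 against 11.69, 11.73 and 11.46, and its difference of -0.28 (SE 0.09) missed the threshold at an adjusted p of 0.0858.

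No IRF among the members passed the test. Irf1, induced chiefly by interferon gamma, was 12.08, 12.04 and 12.39 in Sox17f/f and 12.42, 12.51 and 12.42 in Sox17ed/ed; the groups were separate by a narrow margin and the difference was 0.28 (limma adjusted p = 0.129). Irf7, the amplifier of type I responses, was -0.29 (95% interval -0.61 to 0.04), and Irf2, which can oppose IRF1 on shared sites, was -0.18 (95% interval -0.42 to 0.05). Irf3, the constitutive factor downstream of the sensors, was -0.06 (95% interval -0.24 to 0.11). Irf5 and Irf8, best known from myeloid cells, were -0.08 (95% interval -0.36 to 0.21) and 0.11 (95% interval -0.11 to 0.33). Irf4, a factor of lymphocytes and some myeloid cells that was not on the list, was 5.95, 5.95 and 6.25 in Sox17f/f and averaged 7.01 ± 0.015 (SD) in Sox17ed/ed, with no overlap, a difference of 0.96 (SE 0.10, limma adjusted p = 0.00152).

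The cytosolic sensors held the 2 most negative members, Ddx58 and Zbp1, and 3 of the 5 were called lower and none higher, where 10.0% of all genes were lower. Ddx58, which encodes the RNA sensor RIG-I, gave 12.04, 12.12 and 12.13 in Sox17f/f and 10.90, 11.01 and 11.06 in Sox17ed/ed. The gap between the groups was far wider than the spread within either, and the difference was -1.10, a 2.15-fold change (SE 0.07, limma adjusted p = 0.000228). A second Ddx58 probe, much dimmer, was -0.19 with overlapping arrays, and the mean of both probes was -0.65 (adjusted p = 0.0956), so the call rests on the brighter probe.

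Zbp1, a sensor of left-handed nucleic acids that can start necroptosis, was 8.72, 8.78 and 8.78 in Sox17f/f and 7.98, 8.26 and 7.54 in Sox17ed/ed. The control arrays were tight and the mutant arrays were the most scattered of any member (SD 0.36), yet all 3 lay below the controls. The difference was -0.84 (SE 0.18, limma adjusted p = 0.0232), and a second Zbp1 probe gave -0.76. The call was lost in 5 of 15 settings: without any 1 of the 3 Sox17f/f arrays, without Sox17ed/ed replicate 1 and without the filter on low signal. Dhx58, which encodes the RIG-I relative LGP2, was 8.23, 7.92 and 8.14 against 7.70, 7.66 and 7.81, a difference of -0.37 (SE 0.10, limma adjusted p = 0.0464). That call was the least stable of the 11 and was lost in 9 of 15 settings. Ifih1, which encodes MDA5, the third member of the RIG-I family, was -0.10 (95% interval -0.41 to 0.22), and Eif2ak2, the kinase PKR that halts translation on double-stranded RNA, was 0.09 (95% interval -0.20 to 0.38). Thus Ddx58 and Dhx58 were called and Ifih1 was not; no test of the difference between them was run.

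**Figure D3:**
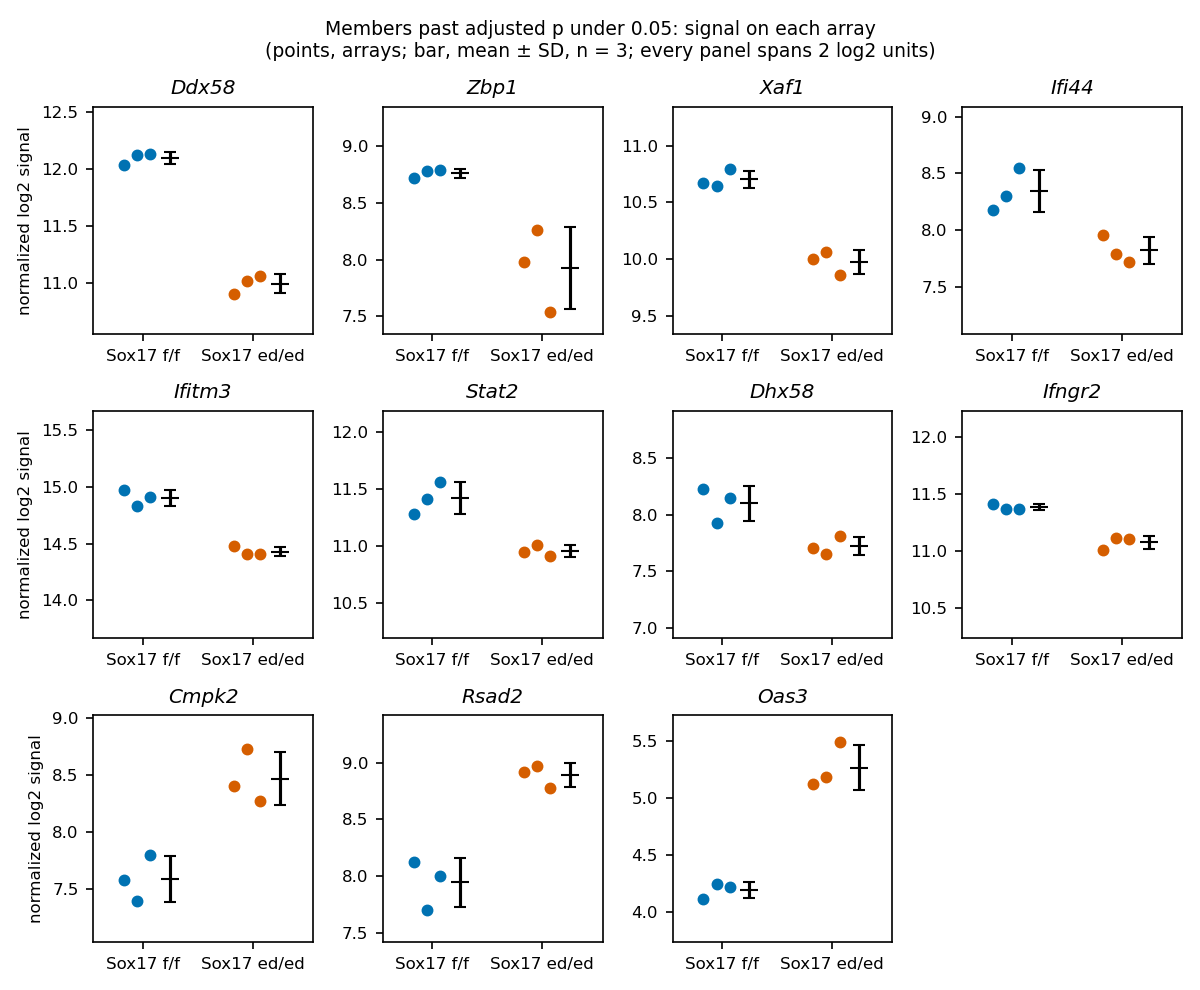
Normalized log2 signal (vertical axis) of the 11 members called at an adjusted p under 0.05, on the 3 Sox17f/f and 3 Sox17ed/ed arrays (points), with mean ± SD (bars). Panels run from Ddx58 (-1.10) to Oas3 (1.08) and each spans the same number of log2 units; the groups overlap in no panel.

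The 3 members called higher are all effectors. Rsad2 encodes viperin, a radical SAM enzyme that makes a chain-terminating nucleotide, and Cmpk2 encodes the mitochondrial nucleotide kinase that can supply its substrate; they are next to each other on chromosome 12 in the RefSeq gene order. Rsad2 was 8.13, 7.71 and 8.01 in Sox17f/f and 8.92, 8.97 and 8.77 in Sox17ed/ed, a difference of 0.94 (SE 0.12, limma adjusted p = 0.00406). Cmpk2 was 7.58, 7.39 and 7.79 against 8.41, 8.73 and 8.27, a difference of 0.88 (SE 0.15, limma adjusted p = 0.0116), and its second probe gave 0.53. In both genes every mutant array lay above every control array. With the replicate number as a block, the Cmpk2 value had an adjusted p of 0.0544.

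Oas3 encodes the largest of the oligoadenylate synthetases, which activate RNase L. It was dim, at 4.12, 4.25 and 4.22 in Sox17f/f and 5.12, 5.19 and 5.50 in Sox17ed/ed, and was well above background on 2 of 3 Sox17f/f arrays and on all Sox17ed/ed arrays. The difference was 1.08 (SE 0.11, limma adjusted p = 0.00161), and it shrank to 0.29 (adjusted p = 0.0295) after normexp background correction, which compresses low signals. None of the other 4 members of the family passed the test, and the difference between them and Oas3 was not tested. Oas2, the neighbour of Oas3 on chromosome 5, was -0.13 (95% interval -0.36 to 0.10) and Oas1a was -0.18 (95% interval -0.36 to 0.00). Oasl2 was -0.14 (95% interval -0.47 to 0.19). Oasl1, which lacks synthetase activity, was 9.19, 8.92 and 9.30 against 9.60, 9.46 and 9.44, above the controls on every array, but its difference of 0.36 had a limma adjusted p of 0.0747; it passed in 2 of the 15 settings.

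Of the membrane proteins, Ifitm3, which blocks fusion of viruses in endosomes, was called lower. Its signal was 14.97, 14.83 and 14.91 in Sox17f/f and 14.48, 14.41 and 14.41 in Sox17ed/ed. The groups were tight and separate, and the difference was -0.47 (SE 0.07, limma adjusted p = 0.00574). Ifitm1, its relative on the same chromosome, was -0.15 (95% interval -0.49 to 0.18). Bst2, or tetherin, which holds budding virions at the cell surface, was 0.20 (95% interval -0.11 to 0.52).

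Several classic markers of a type I response did not pass. Isg15, the ubiquitin-like protein conjugated to targets during the response, was 12.19, 12.11 and 12.14 in Sox17f/f and 12.01, 11.84 and 11.80 in Sox17ed/ed. Its arrays did not overlap, but the difference of -0.26 (SE 0.08) had a limma adjusted p of 0.0665. Its second, dimmer probe gave -0.45 with overlapping arrays (limma adjusted p over probes = 0.159). Usp18, the protease that removes ISG15 and dampens receptor signalling, was 9.58, 9.60 and 9.56 against 9.47, 9.37 and 9.24, a difference of -0.22 (limma adjusted p = 0.104). The Ifit family, tetratricopeptide proteins that bind foreign RNA ends, had overlapping arrays in all 3 members. Ifit1 was -0.22 (95% interval -0.69 to 0.24), Ifit2 was 0.19 (95% interval -0.06 to 0.45) and Ifit3 was 0.18 (95% interval -0.16 to 0.53), with signals between 6.41 and 8.97.

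The 5 immunity-related and guanylate-binding GTPases, which interferon gamma strongly induces, held no call. Igtp was -0.11, Irgm2 -0.16, Gbp2 -0.23 and Gbp3 -0.0026, all with overlapping arrays. Irgm1, a regulator of the family, was 10.45, 10.31 and 10.41 in Sox17f/f and 10.82, 10.52 and 10.47 in Sox17ed/ed, separate by a small margin, with a difference of 0.21 (limma adjusted p = 0.228). Over all 33 members that were not called, the 95% interval lay within a 2-fold change in every case, with a largest bound of 0.69, and within a 1.4-fold change in 24. Smaller changes in these members cannot be judged from 3 arrays a genotype.

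Among 7 further stimulated genes, 2 were called lower. Xaf1, an antagonist of the apoptosis inhibitor XIAP, was 10.67, 10.65 and 10.79 in Sox17f/f and 10.00, 10.06 and 9.86 in Sox17ed/ed. The groups stood well apart, with a difference of -0.73 (SE 0.08, limma adjusted p = 0.00215). A second, dimmer probe gave -0.42 with overlapping arrays (limma adjusted p over probes = 0.137). Ifi44, a cytoplasmic protein of the antiviral response, was 8.18, 8.30 and 8.55 against 7.95, 7.79 and 7.72, a difference of -0.52 (SE 0.12, limma adjusted p = 0.0277), a call lost in 5 of 15 settings. Ifi27 was -0.08, Ifi35 -0.13, Parp9 -0.07, Parp14 0.10 and Rtp4 -0.02. None of those 5 passed, and only Ifi35 had groups that did not overlap. Parp9 and Parp14, partner ADP-ribosyltransferases of macrophage interferon signalling, flank Dtx3l on chromosome 16; Dtx3l, the ubiquitin ligase that binds PARP9, was 0.25 (adjusted p = 0.107).

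Some other genes of the pathway moved by more than any member. Of 96 listed for their function, 86 were tested and 18 were called (20.9%, against 18.8% of all genes), 5 higher (5.81% against 8.81%) and 13 lower (15.1% against 10.0%). The most negative was Myd88, the adaptor of Toll-like and interleukin-1 receptors, at 12.49, 12.61 and 12.93 in Sox17f/f and 10.55, 10.44 and 10.52 in Sox17ed/ed, a difference of -2.17 (SE 0.12, limma adjusted p = 0.000132). Isg20, an interferon- and estrogen-regulated exonuclease, was 12.87, 13.25 and 12.85 against 10.92, 11.02 and 10.85, a difference of -2.06 (SE 0.12, limma adjusted p = 0.000174). Socs3, the feedback inhibitor of gp130 cytokine signalling, was 12.05, 12.11 and 11.85 against 10.01, 9.73 and 10.30, a difference of -1.99 (SE 0.16, limma adjusted p = 0.000494). In all 3 the groups lay far apart.

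Of the ligands, Ifne, which encodes interferon epsilon, was well above background on all Sox17f/f arrays, at 5.15, 5.25 and 4.85, and on no Sox17ed/ed array. It was at least 1.81-fold lower in Sox17ed/ed. Ifne passed the filter on low signal only through the Sox17f/f arrays, so no adjusted p is given as support. It is counted among the pathway genes called lower. Ifng, Ifnk and Ifnl3 were -0.08, -0.04 and 0.05 and did not pass, and Ifnb1 was well above background on none of the 6 arrays. Of the DNA sensing pair, the adaptor Sting1 was 12.72, 12.53 and 12.68 against 11.87, 12.21 and 11.81, a difference of -0.68 (SE 0.12, limma adjusted p = 0.0138), and the sensor Cgas was 0.13 (adjusted p = 0.258). Ifnlr1, the epithelial receptor for interferon lambda, was -0.02 (adjusted p = 0.911).

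The 5 pathway genes called higher were Irf4, Tgtp2, Ly6e, Psmb9 and Pml. Tgtp2, an interferon gamma-induced GTPase of the same class as Igtp, was 11.65, 11.07 and 11.14 in Sox17f/f and 12.24, 12.47 and 11.88 in Sox17ed/ed, a difference of 0.91 (SE 0.21, limma adjusted p = 0.0298). Ly6e, a lipid-anchored surface protein, was 0.60 (adjusted p = 0.00584), Psmb9, an immunoproteasome subunit, was 0.40 (adjusted p = 0.0445), and Pml, the organiser of nuclear bodies, was 0.30 (adjusted p = 0.0322). Of 22 interferon gamma-inducible genes tested, Tgtp2 and Psmb9 were called higher and none was called lower; 2 of 22 higher is close to the 8.81% of all genes. Ciita, the MHC class II transactivator, at 2.25 (adjusted p = 0.120), and Gbp8, at 1.59 (adjusted p = 0.0505), had larger estimates than either but did not pass. Each was well above background on only 1 Sox17f/f array, and both were named after their values were seen.

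**Figure D4:**
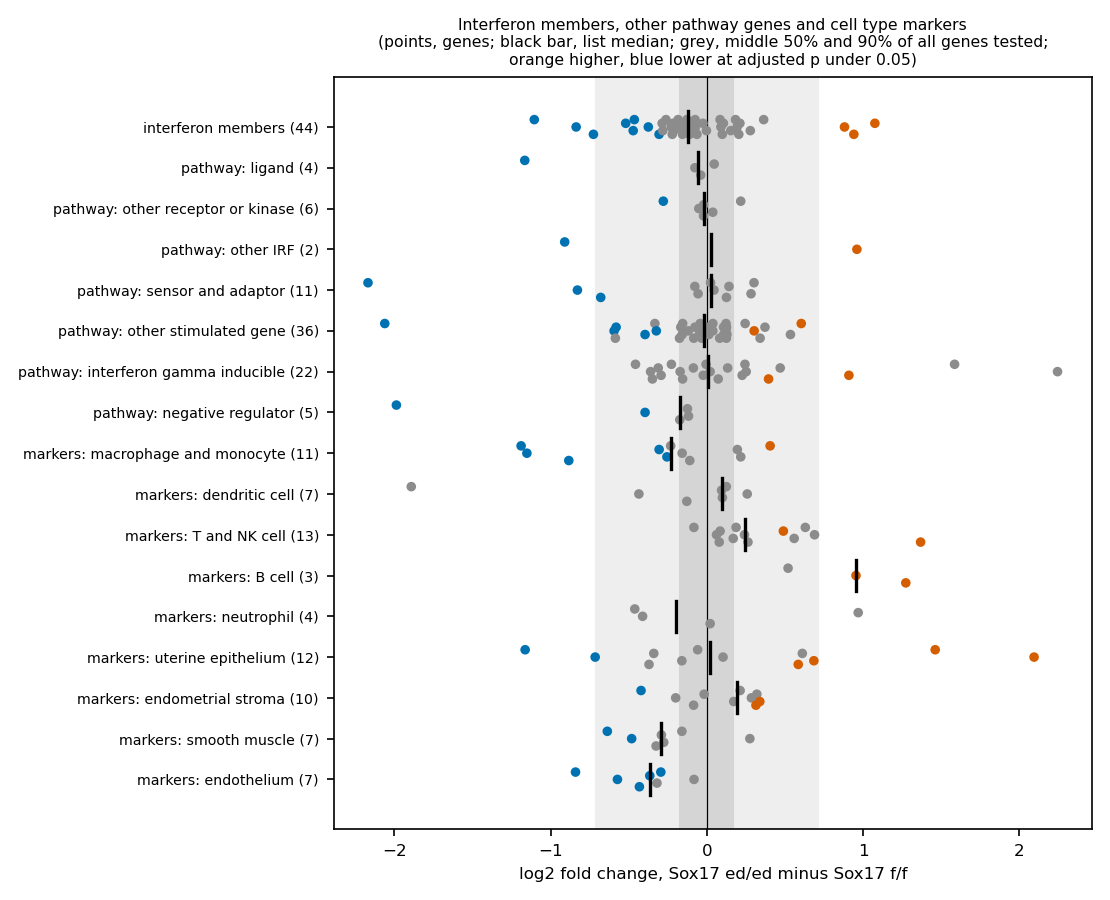
Log2 fold change (horizontal axis, Sox17ed/ed minus Sox17f/f) of the 44 members, of 86 other pathway genes by role and of 74 cell type markers by cell type, with the number of genes in parentheses; each point is a gene, black bars are list medians, and grey bands hold the middle 50% and 90% of all 14856 genes tested. The members' median is -0.12 and most members lie inside the grey bands, while Myd88, Isg20 and Socs3 lie near -2.

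Some cell type markers were called between the same groups, where 8.81% of all genes were called higher and 10.0% lower. The markers' part in the members' values was not tested. Of 7 endothelial markers 5 were lower and none higher, with Vwf at -0.84, and their summed signal ranged from 18301 to 22024 in Sox17f/f and from 12627 to 14352 in Sox17ed/ed. Of 7 smooth muscle markers 2 were lower, with Actg2 at -0.64; the sums ranged from 469531 to 516587 and from 341357 to 412355. Of 11 macrophage and monocyte markers 5 were lower and 1 higher, led by the interferon-inducible receptor Fcgr1 at -1.19. Of the 11, 8 were negative and the median was -0.23. In 9 of the 11 the groups did not overlap, 2 higher and 7 lower, against 40.6% of all genes in either direction. Cd14 (-1.15), 1 of the 5 called lower, is listed by the paper among uterine epithelial genes. The sums, to which the brightest probe, that of Csf1r (0.41), adds most, ranged from 28036 to 28479 and from 26933 to 28232. Of 13 T and NK cell markers 2 were higher, Gzmb at 1.37 and Nkg7 at 0.49, and the other 11 did not pass. The sums, to which the probes of Nkg7 and Gzmb add most, ranged from 8433 to 9384 and from 10872 to 15502. Of the B cell markers Ms4a1 and Pax5 were well above background on no array, while 2 of the 3 tested were higher, with Jchain at 1.27; the sums ranged from 4397 to 9666 and from 13704 to 16188. None of 7 dendritic cell and none of 4 neutrophil markers passed, and Xcr1 was well above background on no array. Uterine epithelial markers were present in both genotypes, with 4 of 12 higher, led by Krt19 at 2.10, and 2 lower, led by Cldn3 at -1.16; of 10 stromal markers 2 were higher and 1 lower, Dcn at -0.42.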

How the data were processed

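RNA of 6 whole uteri was hybridised to 1-colour (Cy3) Agilent mouse arrays of 62976 spots. The authors deposited Feature Extraction scanner output (version 11.0.1.1 in the headers, 9.1 in the labels), with intensity per spot, already background-subtracted by that software; the deposited value table, also intensity, matched the processed signals to within 0.145% at the 99th percentile, and served as an alternative. The study's methods name quantile normalization in Bioconductor.

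From the files, 3671 control spots and 169 to 302 outlier spots per array were left out, log2 processed signals were quantile-normalized, and spots were averaged per probe. A probe was kept if 3 or more of the 6 arrays had it well above background, and the brightest probe stood for a gene, as named through the RefSeq accession (26582 of 55681 probes, 20145 genes, table of GRCm38.p6). limma 3.58.1 in R 4.3.3 (lmFit, eBayes; no block) compared the genotypes, and a gene was called at a Benjamini-Hochberg adjusted p under 0.05. On simulated data of 14763 genes, this recovered 74 of 100 genes changed by 1 on the log2 scale and 36 of 100 changed by 0.5, with 4 unchanged genes called. The simulation changed only 200 genes and drew each gene independently, whereas 18.8% of genes were called in the data. Its rates therefore do not give the sensitivity of the comparison made here. For arrays, their number limits the precision. Every member is reported; of other pathway genes, the 5 highest and 5 lowest called, plus Ifnlr1, Sting1 and Cgas; of markers, counts and the most changed gene. Some genes that this rule takes in are not reported here. Other genes were named after their values were seen.

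The members and lists were chosen with earlier results of these data known. Alternatives were a shift to the 75th percentile, normexp (offset 50, on median signals, as the files hold no mean signal), other filters, the mean of a gene's probes, an intensity trend, the value table, the methods' threshold, a replicate block and each array left out; 1 more was added after seeing the data. Replicates are separate samples per the labels.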

Additional observations from a re-analysis of the deposited data

How the results depend on the processing

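The 3 members called higher numbered 3 to 5 with 1 array left out (5 without Sox17f/f replicate 3, when Irf1 and Oasl1 joined). The 8 called lower were 4 at the methods' threshold, 5 without a filter on low signal and 4 to 6 with 1 array left out: 5 without Sox17f/f replicate 1, 4 without Sox17f/f replicate 2, 5 without Sox17ed/ed replicate 1 and 4 without Sox17ed/ed replicate 3. With both arrays of number 3 left out, chosen after seeing the data, 3 members were lower. Calls fell over all genes too: 18.8% were called, against 12.5% at the methods' threshold, 10.3% without a filter and 11.1% to 17.9% with 1 array left out. Other pathway genes called higher (5) were 8 with normexp, 8 with an intensity trend, 2 without a filter and 2 to 5 with 1 array left out (3 without Sox17f/f replicate 1, 3 without Sox17f/f replicate 2, 3 without Sox17ed/ed replicate 1, 2 without Sox17ed/ed replicate 2); with both arrays of number 3 left out they were 3 higher and 7 lower.

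With the replicate number as a block, 4 members were lower and 2 other pathway genes higher, and 6 members were called (12.5% of all genes). The deviations of same-numbered arrays correlated at 0.06, -0.11 and -0.00013, and those of differently numbered arrays at -0.08 to 0.08. No sign of pairing by number was seen, but 3 arrays a genotype are too few to exclude it. A slide or scan block was not run, since there was 1 slide and 1 scan.

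Of the 11 calls, Rsad2 and Xaf1 were kept in all 15 planned settings and Oas3 in the 14 that tested it. Dhx58 was lost in 9, Ifngr2 in 6, and Stat2, Zbp1 and Ifi44 in 5 each. Ddx58 (mean of probes), Cmpk2 (replicate block) and Ifitm3 (methods' threshold) were each lost in 1. Isg15 passed in 3 settings, Oasl1 in 2, and Irf1 and Irf9 in 1 each. No called member changed sign in the planned settings. Uncalled members that did were Ifnar1 (-0.029, mean of probes) and, with 1 array left out, Irf5 (-0.18 to 0.012; positive without Sox17ed/ed replicate 3), Ifih1 (-0.19 to 0.036) and Eif2ak2 (-0.013 to 0.19), both without Sox17f/f replicate 3, and Gbp3 (-0.088 to 0.11) and Rtp4 (-0.068 to 0.029), both without replicate 3 of either genotype. With both arrays of number 3 left out, Irf5 (0.054), Ifih1 (0.089), Eif2ak2 (-0.027), Oasl2 (0.058), Igtp (0.061), Irgm2 (0.014), Gbp3 (0.16), Parp9 (0.021) and Rtp4 (0.060) changed sign. The causes were not tested. Sox17 stayed between -2.71 and -2.39 in the planned settings.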
